A study of Penicillium oxalicum with 6 samples.

Results

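In the filamentous fungus Penicillium oxalicum, 75 of the 8909 genes in each deposited table carried abundant ribosome footprints at about the same level with and without the gene PoxTMA7. They were chosen by their measured values. The mean had to be at least 500 FPKM over the 3 wild-type libraries and over the 3 knockout libraries. FPKM is the deposited unit, by its name a density of fragments per gene length and library size. The knockout mean had to be 80% to 125% of the wild-type mean, that is a knockout over wild-type ratio from 0.8 to its reciprocal. Of the 218 genes that met the level bound in both strains, these 75 made up 34.4%. Because the rule used the levels and the ratio, both are given here as descriptions, and nothing is tested on them.

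The samples were mycelia of the wild type (n = 3) and of a strain with PoxTMA7 knocked out (n = 3), which the titles number as biological replicates 1 to 3. All were pre-grown for 24 h on 1% glucose and then kept for 24 h on 1% Avicel, a microcrystalline cellulose. RNase I digestion lasted 1 h, and protected RNA of 26 to 34 nucleotides was taken. The genotype field of knockout replicates 2 and 3 reads PoxTMA8 and PoxTMA9 and goes against their titles, which were followed. Whether the knockout strain is 1 clone is not stated in the labels, and no level of PoxTMA7 itself was analysed here, since the identifiers carry no gene names.

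In ribosome profiling, RNase digests the mRNA that is not covered by ribosomes, and the shielded fragments are sequenced. The number of footprints on a gene depends on how much of its mRNA there is and on how many ribosomes each mRNA carries. TMA7 is a small protein that was found in yeast among proteins that copurify with ribosomes. P. oxalicum is studied for the enzymes it secretes to break down plant cell walls, and cellulose as the carbon source calls for them. With no RNA-seq of these mycelia analysed here, mRNA level and ribosome load per mRNA cannot be told apart in any value below.

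Deposited FPKM summed to 1022338, 1021836 and 1024510 in wild-type replicates 1, 2 and 3, and to 977662, 978164 and 975491 in the knockout replicates. For each number, the wild-type and knockout totals added up to almost the same sum. The deposited totals were thus tied by replicate number, and how this came about was not tested. Whole footprints were read back from the steps between FPKM values for 7854 of the 7855 genes above 0 in at least 3 libraries. The recovered totals were 429205 to 844236 footprints per wild-type library and 1160155 to 1441592 per knockout library. All knockout libraries were deeper, so an effect of depth and one of genotype cannot be told apart. All 75 genes were recovered, with at least 111 footprints in each wild-type library and at least 343 in each knockout library. In both strains the library numbered 3 stood apart from the libraries numbered 1 and 2 in these genes, as described further on, and the results that rest on it are given with and without it. No 2 libraries of a strain were alike to within counting error: the chi-square per gene, about 1 for copies, was 1.6 to 2.55 over all genes.

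The 75 genes spanned a wide range of levels. Their mean over the 6 libraries went from 515.9 to 6080 FPKM with a median of 932.1, and 40 genes lay below 1000 FPKM, 19 from 1000 to 2000, 14 from 2000 to 5000 and 2 above 5000. What the authors divided by for each gene is not known, so these levels order the genes only roughly. Summed over the 75 genes, the level was 110955, 111119 and 111121 FPKM in wild-type replicates 1, 2 and 3, and 110847, 111471 and 108758 FPKM in the knockout replicates. The sums of the strains overlapped, at 111065 ± 95.2 FPKM and 110359 ± 1421 FPKM (SD, n = 3 each), a ratio of 0.994. As a share of all FPKM, the wild type spent 10.9% ± 0.015 on the 75 genes and the knockout 11.3% ± 0.13 (SD, n = 3 per strain). The other 143 genes above the level bound took 34.8% ± 0.6 and 38.3% ± 0.55.

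**Figure D1:**
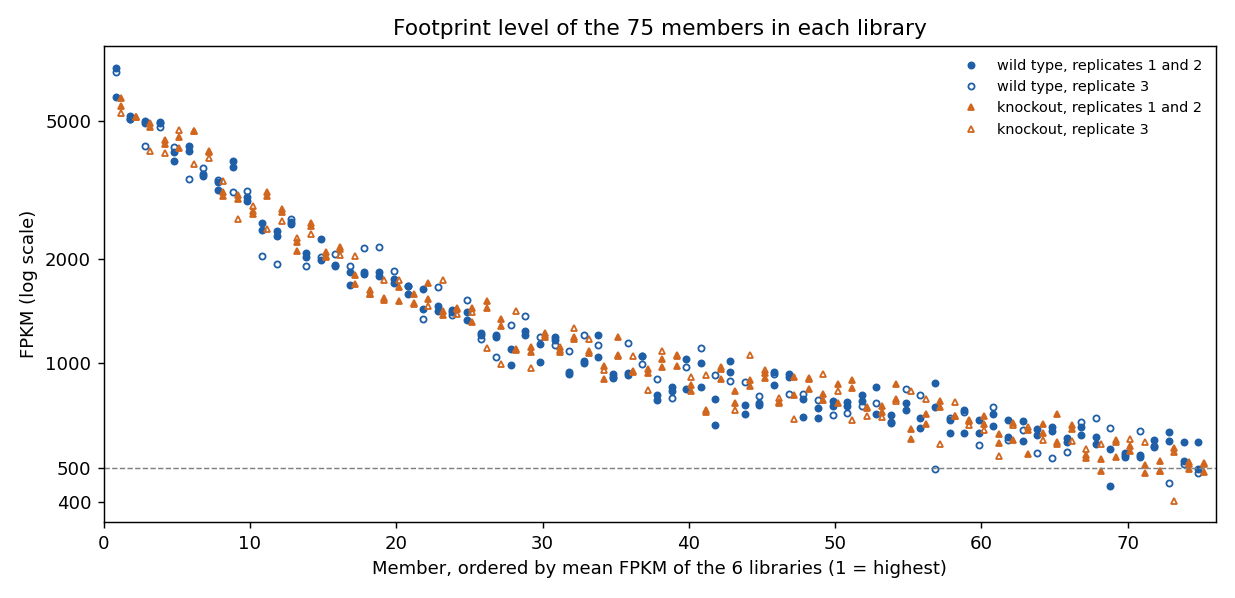
FPKM on a log axis of each of the 75 genes in each library, with genes ordered by their mean over the 6 libraries, wild type as circles and knockout as triangles, and replicate 3 of each strain as open symbols. Means run from 6080 down to 515.9 FPKM, and the dashed line marks the level bound of 500 FPKM, which applies to strain means and not to single libraries.

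The identifiers are those of the deposited tables, which give no gene names, and 0 of them matched the 9964 entries of the RefSeq table of strain HP7-1, so what the genes encode was not analysed here. The 4 genes named are the most abundant with a ratio of at least 1 (2 genes) and with a ratio below 1 (2 genes). POX_1g00698, the most abundant, had 5851, 7117 and 6929 FPKM in wild-type replicates 1, 2 and 3, and 5514, 5808 and 5263 FPKM in the knockout replicates. Every knockout library was below every wild-type library, by a narrow gap between 5808 and 5851 FPKM. The ratio of its means was 0.834, and without wild-type replicate 1 it was 0.787, which is outside the range of the rule.

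POX_1g00702, the next in level, was the steadiest of all. It had 5054, 5151 and 5076 FPKM in the wild type and 5133, 5124 and 5138 FPKM in the knockout. The 3 knockout values fell inside the wild-type range, and the highest of the 6 libraries was 1.02 times the lowest. Its CV (SD over mean) was 0.99% for the wild-type libraries and 0.138% for the knockout libraries, while footprint counting alone gives 1.26% and 0.845%. The measured spread was thus below what counting alone gives.

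POX_3g04182 had 4928, 4986 and 4221 FPKM in the wild type and 4813, 4921 and 4090 FPKM in the knockout. The strains overlapped, and in both it was replicate 3 that was low. The ratio of the means was 0.978, with a CV of 9.04% for the wild type and 9.8% for the knockout. POX_2g02083 had 4065, 3843 and 4195 FPKM in the wild type and 4186, 4484 and 4716 FPKM in the knockout. Its lowest knockout value was just under the highest wild-type value, and the ratio of the means was 1.11.

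The gene of rank 4 in level showed a small difference with little spread: it had 4962, 4935 and 4798 FPKM in the wild type and 4288, 4408 and 4033 FPKM in the knockout. The strains did not overlap, and the ratio was 0.866. Over the 16 genes at 2000 FPKM or more, the ratio went from 0.811 to 1.23 with a median of 0.994, 8 of them were below 1, and 8 did not overlap between the strains. Among the other 59 genes the median ratio was 1 and 23 did not overlap. Of all 7703 genes tested, 49.4% did not overlap, and since the rule used the ratio nothing is read from these counts. For the 16 genes the wild-type and knockout CVs had medians of 4.58% and 4.39%, and for the 59 they had medians of 7.44% and 6.01%.

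Within the range that the rule allowed, the ratios were spread almost evenly. They ran from 0.805 to 1.248 with a median of 1.001. The ratio was below 0.9 for 17 genes, from 0.9 to 1 for 20, from 1 to 1.1 for 20 and above 1.1 for 18. In all, 37 genes were below and 38 at or above the wild-type mean. Of the genes that met the level bound but not the ratio, 51 lay from 0.5 to 0.8, 22 below 0.5, 46 between the upper bound and 2, and 24 at 2 or above.

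The bounds of the rule cut through a continuous range. At the lower bound, the last gene inside had 1001, 856 and 1105 FPKM in the wild type and 735, 726 and 924 FPKM in the knockout, a ratio of 0.805. The first gene outside had 1162, 1032 and 1129 FPKM against 863, 881 and 911 FPKM, a ratio of 0.799. In the gene inside, 1 knockout library reached the wild-type range, and in the gene outside none did. At the upper bound, the last gene inside had 854, 831 and 794 FPKM in the wild type and 1051, 986 and 1055 FPKM in the knockout, a ratio of 1.248. The first gene outside had 7273, 6969 and 7598 FPKM against 9071, 9116 and 9500 FPKM, a ratio of 1.268. At the level bound, the last gene inside had strain means of 583.8 and 502 FPKM, and the first outside had 495.8 and 492.3 FPKM with a ratio of 0.993. Within 5% of a ratio bound there were 19 genes inside, 9 at the lower and 10 at the upper, and 10 outside, 6 and 4.

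The highest of the 6 values of a gene was at most 125% of the lowest for 35 of the 75 genes. The highest over the lowest value was 1.26 at the median and 1.77 at most. The strains did not overlap for 31 of the 75 genes (41.3%), 12 with the knockout higher and 19 with it lower, against the 49.4% of all genes. In the limma fit over all 7703 genes, 24 of the 75 were called at an adjusted p under 0.05 (32%), against 38.9% of all genes. The rule used this same contrast, so nothing is read from either share. The called genes had ratios of 0.805 to 0.866 or of 1.14 to 1.248. The number called was 15 (20%) without knockout replicate 1 and 15 (20%) without knockout replicate 2, against 32.2% of all genes in each case. Without knockout replicate 3 it was 27 (36%), against 32.7%, so there the share was larger among the 75. Without wild-type replicates 1, 2 and 3 it was 20 (26.7%), 19 (25.3%) and 24 (32%), against 36.5%, 36.5% and 39.1%. With the replicate number as a block it was 34 (45.3%), against 40.7% of all genes. None of the 19 genes with a ratio within 5% of 1 had strains that did not overlap. For 34 of the 75 genes the strain means differed by less than the larger of the 2 SDs.

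The split of the calls by direction moved with the scaling. At the deposited scaling 10 of the called genes were higher in the knockout and 14 lower. After scaling to a common library total, 17 were higher and 3 lower, and scaling by the median ratio gave 19 that were higher and 0 lower. Upper-quartile scaling gave 22 and 0. These totals of 20, 19 and 22 called genes are 26.7%, 25.3% and 29.3% of the 75. They stand against 38.2%, 38.1% and 38.1% of all genes called. The 24 genes called at the deposited scaling each kept their side of 1 under these 3 scalings, so it was the set past the threshold that moved.

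Scaling moved all ratios up by a common factor. Relative to the deposited values, scaling to the library total multiplied each knockout over wild-type ratio by about 1.047, the median ratio by 1.068 and the upper quartile by 1.086. The median ratio of the 75 genes went from 1.001 to 1.048, 1.07 and 1.088. The range went from 0.805 to 1.248 at the deposited scaling to 0.843 to 1.306 under the total, 0.86 to 1.334 under the median ratio and 0.875 to 1.356 under the upper quartile. The number of genes below 1 dropped from 37 to 28, 25 and 22. For scale, at the deposited scaling the median ratio of the 75 genes was 0.978 to 1.01 over the 9 pairs of a wild-type and a knockout library. The medians under the other scalings lay above that range.

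The most abundant gene of the tables, which is not among the 75, carries part of the shift by the total. With that gene left out of the totals, an alternative added after the data were seen, the factor was 1.025 and the median ratio 1.026. Over all genes tested with a ratio above 0, the median log2 ratio was -0.084 at the deposited scaling and -0.017, 0.012 and 0.037 under the total, median-ratio and upper-quartile scalings, a shift of up to 0.121. The median log2 ratio of the 75 genes was 0.001 at the deposited scaling and 0.097 with the median ratio. The rule holds the first of these near 0 and each scaling shifts all genes about alike, so nothing is read from the distance to the median of all genes.

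Membership moved with the scaling at both ratio bounds. The rule gave 71 genes under the total, 75 under the median ratio and 80 under the upper quartile, of which 66, 64 and 64 were among the 75. The 9, 11 and 11 genes that left did so above the upper bound, and none fell below 0.8 or below the level bound. The 5, 11 and 16 genes that entered had deposited ratios below 0.8, except for 1 under the upper quartile that came from below the level bound. Under all 4 of the other scalings 64 of the 75 met the rule. These had deposited ratios of 0.805 to 1.15, and the 11 that did not had deposited ratios of 1.188 to 1.248. POX_1g00702 had a ratio of 1.01 at the deposited scaling and of 1.055, 1.08 and 1.09 with the total, the median ratio and the upper quartile. For POX_3g04182 the ratio was 0.978 and went to 1.02, 1.04 and 1.06, which is a change of side. That of POX_1g00698 went from 0.834 to 0.873, 0.89 and 0.904 and stayed below 1, and that of POX_2g02083 from 1.11 to 1.16, 1.18 and 1.2.

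**Figure D2:**
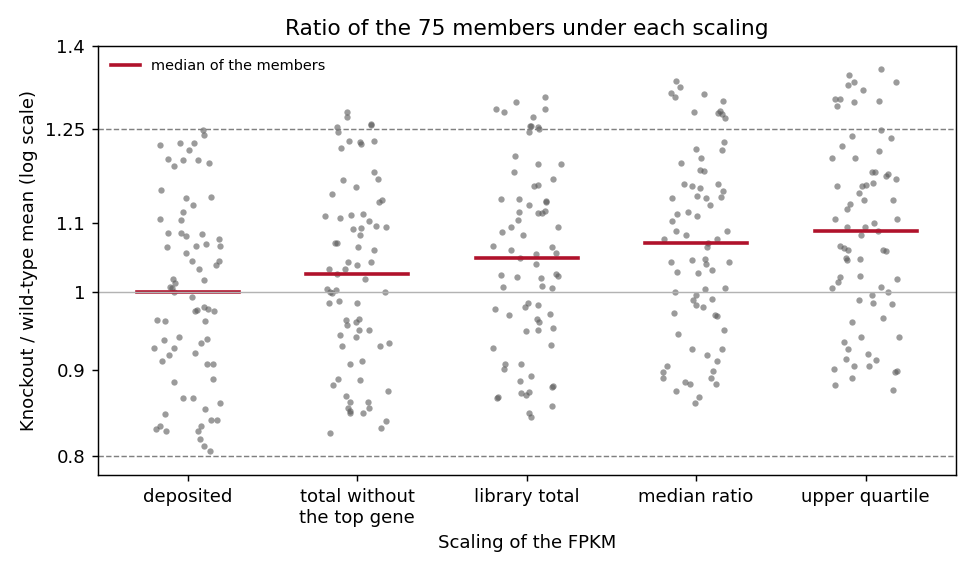
Knockout over wild-type ratio of mean FPKM on a log axis for the 75 genes, 1 point per gene, at the deposited scaling and under 4 others, with red bars at the medians. The medians rise from 1.001 to 1.026, 1.048, 1.07 and 1.088, and genes cross the upper dashed line at 125% but not the lower one at 0.8.

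Replicate spread was wider than footprint counting alone gives. For the wild type the CV over the 3 libraries had a median of 7.23% (0.99% to 27.5%), where counting gives a median of 4.22%. For the knockout the median was 5.43% (0.138% to 18.2%), where counting gives 2.82%. The CV exceeded the counting CV in 56 of the 75 genes for the wild type and in 62 for the knockout. It was over 10% in 21 and 15 genes and under 5% in 27 and 33. With counting error taken off gene by gene and negative remainders set to 0, an alternative added after the data were seen, the medians were 5.57% and 4.73%. For 1 gene the recovered step was over 2 times the median step, so its footprints may be undercounted and its counting CV too high.

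The 143 other genes above the level bound had a median CV of 4.87% for the wild type and 5.57% for the knockout, against 7.23% and 5.43% for the 75. Their median level was higher, at 1386 FPKM against 932.1 FPKM, and their median counting CV was 3.66% and 2.56%. No test was made of this difference, since genes of the same libraries are not replicates.

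**Figure D3:**
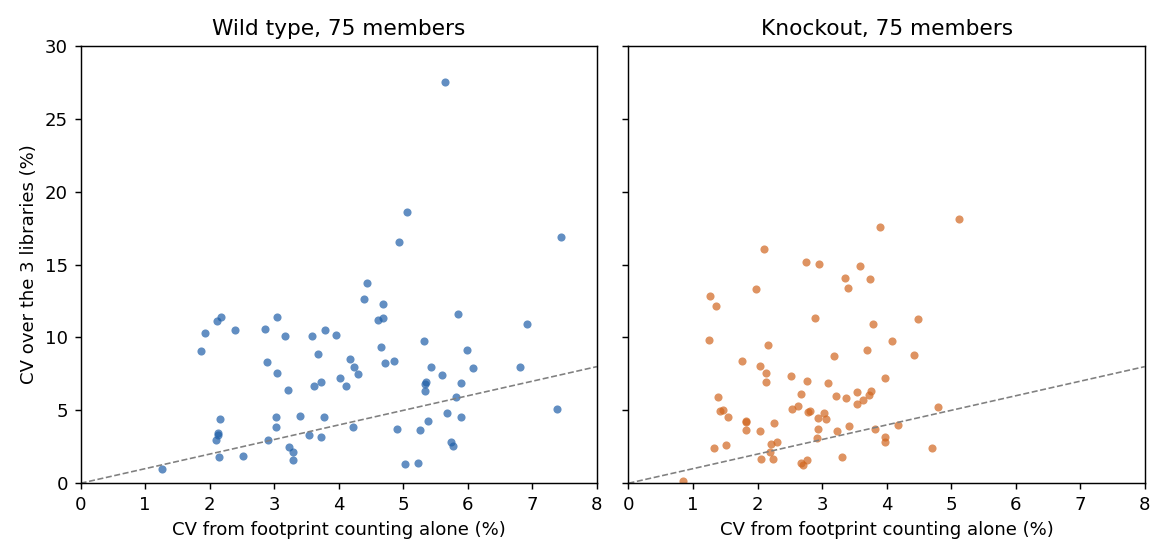
CV over the 3 libraries of each strain against the CV that footprint counting alone gives, both in percent, 1 point per gene for the 75 genes, wild type left and knockout right. The dashed line marks equal values, and 56 wild-type and 62 knockout points lie above it.

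The spread was larger between libraries when one of them was numbered 3. Between replicates 1 and 2 alone, the median CV of the 75 genes was 3.23% for the wild type and 2.82% for the knockout. The counting CV for these libraries had medians of 3.76% and 2.9%. A CV of 2 values falls below the underlying spread more often than above it, so its median is no direct match for the counting CV. Between replicates 1 and 3 it was 7.43% and 5.78%, and between 2 and 3 it was 5.33% and 5.69%. The chi-square per gene over the 75 genes was 3.1 between wild-type replicates 1 and 2 and 2.13 between knockout replicates 1 and 2. Both were above the value of about 1 for copies. Pairs that include replicate 3 gave 5.77 and 6.49 in the wild type and 13.7 and 17.3 in the knockout. At the same fold deviation this measure grows with depth, so its values are not compared between the strains. Over all genes it was 1.66 between wild-type replicates 1 and 2, and 1.68 and 1.8 for the pairs with replicate 3. In the knockout it was 1.6, against 2.37 and 2.55. The CVs of the other 143 abundant genes showed the same order as those of the 75. They were 2.95% and 2.18% between replicates 1 and 2 against 4.44% to 6.17% for the pairs with replicate 3.

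The libraries numbered 3 of the 2 strains deviated in the same direction, gene by gene. For 61 of the 75 genes (81.3%), wild-type replicate 3 and knockout replicate 3 lay on the same side of the mean of replicates 1 and 2 of their own strain. This held for 72% of the other 143 abundant genes and for 57.3% of the 4795 genes at 10 FPKM or more in every library. Among the 75, both libraries were more than 1.1-fold higher for 10 genes and more than 1.1-fold lower for 9. Only 1 gene went more than 1.1-fold in opposite ways. Across the 75 genes, the log2 deviations of the 2 libraries correlated at a Pearson r of 0.742 and a Spearman rho of 0.742. This is a description across genes of the same 6 libraries, and genes are not independent replicates. The same value was 0.671 for the other 143 abundant genes and 0.146 for the 4795 genes at 10 FPKM or more in every library, where counting error is larger. For the libraries numbered 1 and 2 it was 0.277 and 0.521 over the 75 genes. Wild-type replicate 3 was the shallowest and knockout replicate 3 the deepest of the 6 libraries. Scaling multiplies each library by 1 factor, so r over the 75 genes could hardly move, and it stayed at 0.742 or 0.743. The share on the same side could move. It was 78.7%, 74.7% and 77.3% of the 75 genes under the total, median-ratio and upper-quartile scalings. For the other 143 abundant genes it was 71.3%, 79% and 79.7%. Under the median ratio and the upper quartile the share was thus not higher among the 75. The deposited totals were tied by number, as given above, and what else these libraries share was not tested.

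Single genes, picked for their values, serve as examples. The gene whose libraries numbered 3 were both highest had 1099, 988 and 1293 FPKM in the wild type and 1101, 1097 and 1412 FPKM in the knockout. The gene whose libraries numbered 3 were both lowest had 596, 634 and 454 FPKM in the wild type and 554, 570 and 403 FPKM in the knockout. The gene with the widest spread had 749, 881 and 497 FPKM in the wild type and 748, 781 and 585 FPKM in the knockout, and its ratio was 0.994. The gene with the ratio nearest to 1, at 1.001, had 1461, 1419 and 1655 FPKM in the wild type and 1417, 1376 and 1745 FPKM in the knockout. In these genes replicate 3 departed from its own strain by more than the strains departed from each other.

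**Figure D4:**
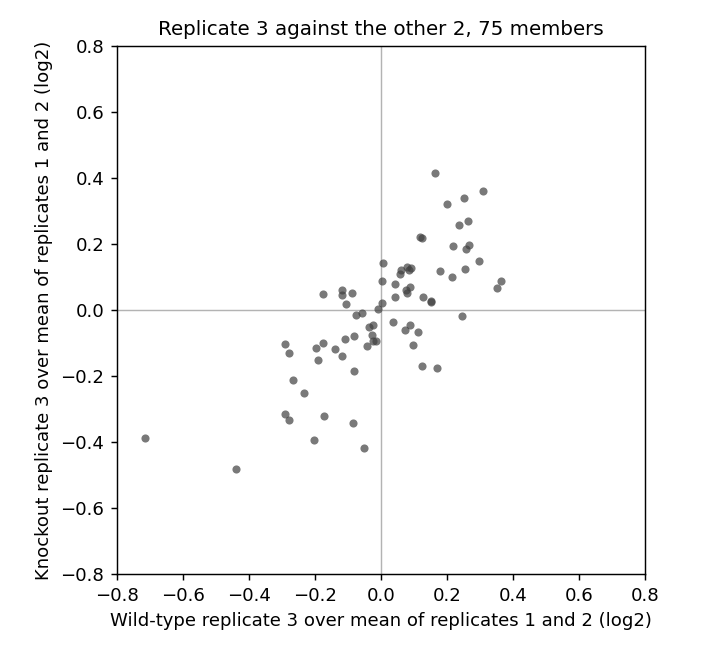
Log2 of replicate 3 over the mean of replicates 1 and 2 of the same strain, wild type on the horizontal and knockout on the vertical axis, 1 point per gene for the 75 genes. Of the 75 points 61 lie in the quadrants where both libraries deviate the same way, and r is 0.742.

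The ratio of single libraries followed the same pattern. Taking each of the 9 pairs of a wild-type and a knockout library, the median ratio of the 75 genes stayed between 0.978 and 1.01. The number of genes with a ratio in the range of the rule was 69 for the pair of libraries numbered 3 and 64 to 71 for pairs among those numbered 1 and 2. It was 57 to 60 where a library numbered 3 was set against a library of another number. In 37 genes all 9 ratios were in that range. Without both libraries numbered 3, an alternative added after the data were seen, the rule gave 74 genes, 70 of them among the 75. The median ratio of the 75 genes was then 1.004 (0.787 to 1.29), and 71 remained in the range. The strains then did not overlap for 55 of the 75 genes, against 66% of the 7307 genes tested. Of the 75 genes limma called 32, against 2416 (33.1%) of the 7307. Both were then a larger share of the 75 than of all genes. With all 6 libraries both were a smaller share, at 41.3% against 49.4% and 32% against 38.9%. The rule used this contrast, so nothing is read from these shares.

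The measure was repeated with libraries that the choice did not use. When each library was left out in turn and the rule applied to the other 5, it chose 72 to 78 genes, of which 69 to 73 were among the 75. The left-out library was then set against the mean of the other strain, always as knockout over wild type. That mean was itself used in the choice, so only the left-out library is new to it. With wild-type replicate 1 left out, 63 of 73 genes (86.3%) had a ratio in the range of the rule, and with wild-type replicate 2, 65 of 78 (83.3%). With knockout replicates 1 and 2 left out, it was 65 of 75 (86.7%) and 62 of 73 (84.9%). With wild-type replicate 3 it was 56 of 75 (74.7%), and with knockout replicate 3 it was 56 of 72 (77.8%). The median ratio of the left-out library was 0.97 to 1. The lowest single ratio was 0.589 and the highest 1.47.

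For scale, the same bounds were applied within 1 strain. Against the mean of the other 2 libraries of its own strain, each wild-type library had 71 to 75 of the 75 genes in that range. Knockout replicates 1 and 2 each had 75, and knockout replicate 3 had 65. No test was made of the difference between strains and within strains, since the rule fixed the former.

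The 75 genes were not gathered in 1 stretch of the identifiers. The digit in front of the g of an identifier goes from 1 to 8 for all but 1 gene, and each of these 8 groups held 6 to 18 of the 75. Their share of the abundant genes of a group was lowest for digit 3, at 6 of 32 (18.8%), and highest for digit 2, at 14 of 31 (45.2%), against 34.4% over all. Consecutive numbers occurred 4 times among the 75 genes, against 28 times among the 218 abundant genes. The 75 are 34.4% of the 218, and fewer genes give fewer such pairs, so nothing is read from these counts. POX_1g00698 (ratio 0.834) was 1 of a consecutive pair whose other gene had a ratio of 1.076. The positions of the genes on the chromosomes were not analysed here.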

How the data were processed

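Ribo-seq of 6 libraries was analysed, 3 per strain, grouped by sample title. The authors deposited FPKM per gene with 2 decimals, per the file headers. Tools named in the submitters' processing notes are STAR 2.7, Bowtie, cutadapt and DESeq2, whose use is not described there. The sources used here do not give the counting program, the genome build or the annotation. The members, lists and tests were chosen with earlier results of these data known. Means and ratios used the deposited FPKM with no pseudocount. The comparison over all genes was made with limma 3.58.1 (R 4.3.3), fitted to log2(FPKM + 1) with a mean-variance trend, two-sided, Benjamini-Hochberg adjustment over 7703 genes with at least 1 FPKM in at least 3 libraries, and a threshold of 0.05. It covers the spread between these libraries only. On simulated libraries the footprint recovery, given no library depths, read back 98.21% of 7755 genes exactly. Counting CVs are Poisson errors of recovered footprints and cover counting error only. Median-ratio factors used genes above 0 in all 6 libraries, and upper-quartile factors the 75th percentile of genes above 0 in any. Named genes are, among the members, the 2 with the highest mean FPKM at a ratio of at least 1 and the 2 below 1. Members described by their place in an order or at a bound are given by value without an identifier.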

Additional observations from a re-analysis of the deposited data

How the results depend on the processing

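The median ratio of the 75 genes, 1.001, was 1.048 with the library total, 1.026 with the total without the most abundant gene, 1.07 under the median ratio and 1.088 under the upper quartile. Leaving out 1 library at a time gave 0.9854 to 1.004, 72 to 78 genes by the rule, a median CV of 3.23% to 7.43% in the wild type and 2.82% to 5.78% in the knockout, and 15 to 27 of the 75 genes called out of 2430 to 2958 in all. With medians in place of means the rule gave 71 genes. With the replicate block limma called 3134 genes and 34 of the 75, against 2996 and 24 without it. As a check of pairing, the correlation of deviations from the strain means was 0.0414, 0.0347 and 0.148 for the numbers 1, 2 and 3 over 4795 genes. For 4 of 6 libraries the closest library of the other strain had the same number, a hint from the data and not from the design. Over these 4795 genes not every number passed 0.1, and on that basis alone the main fit did not pair libraries by number. The deposited totals, in contrast, were tied by number. With deviations taken from the other 2 libraries of a strain, the libraries of a number correlated over the 75 genes at 0.277, 0.521 and 0.742, and over the other 143 abundant genes at 0.293, 0.418 and 0.671, so all 3 numbers passed 0.1 there. A pseudocount of 0.1 gave 22 of the 75 genes called, 29.3% against 36.8% of all genes. Without the filter it was 24, or 32% against 33.1%. With limma-voom on recovered footprints it was 29, or 38.7% against 41.1%. For the 4 named genes, 4 of 36 alternative ratios moved by more than the spread between replicates. The least covered gene had a counting CV of 7.44% per wild-type library. Its measured CV was larger, at 16.9% (wild type) and 18.2% (knockout). None of these values is a detection limit for a ratio of means, and the smallest detectable difference was not tested.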
